A study of Mus musculus with 7 samples.

Results

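The left ventricle (LV) and the right ventricle (RV) of mouse hearts were compared for the cell types they held, stage by stage, before and after birth. The members were all cells assigned to the LV or RV samples of the wild-type CD1 and C57BL/6 strains, at stages with 20 or more cells in both ventricles, without cells that the authors had marked for exclusion. These were 29912 cells, 14507 of the LV and 15405 of the RV, of the 52881 wild-type and 76801 cells in all. They formed 68 samples in 34 pairs of LV and RV, 17 pairs from E9.5 to P9 in CD1 and 17 from E10.5 to P9 in C57BL/6. At each stage several wild-type hearts, with no treatment or altered allele named for them, were pooled and dissected by chamber, and each chamber received its own lipid-anchored DNA barcode (MULTI-seq) before the samples of an experiment were mixed and run on droplet single-cell RNA-seq. Each sample was thus a pool of animals, and each stage and ventricle of a strain was a single sample, apart from P1 and P2 of CD1, which were each run in 2 experiments and whose cells were joined. The LV samples also took in the atrioventricular canal and the ventricular septum, so they stand for more than the LV free wall, and postnatal ventricles went through an additional strainer. What either step did to the shares below was not tested.

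The ventricular wall is built of cardiomyocytes (CMs), which contract, and of non-myocytes that line, feed, scaffold and defend it. Endocardial endothelial cells (ECs) line the lumen, vascular ECs form the coronary vessels, pericytes and smooth muscle cells (SMCs) wrap those vessels, epicardial cells cover the outer surface and give rise to many of the mural cells and fibroblasts, and fibroblast-like cells lay down matrix. The LV and RV derive largely from different progenitor fields and take on unequal loads at birth, when the LV begins to pump against systemic pressure. Types were the authors' own labels, drawn from marker genes such as Ttn for CMs, Myl2 for ventricular and Sln for atrial CMs, Npr3 for endocardial and Fabp4 for vascular ECs, Pdgfrb for pericytes and Myh11 for SMCs. No gene was measured here.

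Pooled over stages, nearly all CMs of both ventricles carried the ventricular label. Of the CMs, 99.6% in the LV and 99.5% in the RV of CD1 were annotated as ventricular. In C57BL/6 these shares were 96.4% and 98.1%. Atrial CMs made up 0.440% of 6825 CMs of the CD1 LV (exact 95% interval 0.297 to 0.627) and 3.55% of 1885 CMs of the C57BL/6 LV (2.77 to 4.49). The late C57BL/6 samples were the exception, since atrial CMs made up 14 of 14 LV and 7 of 7 RV CMs at P7, 17 of 17 and 19 of 20 at P8, and 6 of 6 and 2 of 2 at P9, so the myocyte values of these stages are almost all of atrial-labelled cells. The samples held 66 to 2091 cells in the LV and 54 to 1761 in the RV of CD1, and 46 to 776 and 41 to 5416 in C57BL/6, where the RV at E13.5 alone had 5416. The median UMI count per cell (UMIs are counted RNA molecules) ran from 5569.5 in a C57BL/6 LV sample to 32841 in a CD1 LV sample. Among the cells used, 27 droplet barcodes in CD1 and 16 in C57BL/6 occurred in more than 1 well. In CD1 the LV samples had more cells than the RV samples at 12 of 17 stages, by 0.76 on the log2 scale (SD 0.84, permutation p = 0.00230), while in C57BL/6 the mean log2 ratio was 0.07 (SD 1.62, permutation p = 0.860). Per the paper's methods, the samples were mixed in volumes meant to give equal cell numbers. These numbers therefore describe the cells recovered, not how many cells a ventricle holds.

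Ventricular CMs, the working muscle of the chamber, took a larger mean share of cells in the LV than in the RV in both strains. In CD1 they made up 51.2% ± 34.1 of LV cells (SD, n = 17) and 46.6% ± 35.6 of RV cells, a mean paired difference of 4.56 percentage points (SD 8.45), with the LV higher at 9 stages and the RV at 7. In C57BL/6 the means were 23.4% ± 22.8 and 17.9% ± 15.6 (SD, n = 17), a difference of 5.44 points (SD 14.6), with the LV higher at 8 stages and the RV at 7. Neither passed the sign-flip permutation test once adjusted over the types of the strain (adjusted permutation p = 0.276 and 0.322). Over the 34 pairs of both strains the difference was 5.0 points, with a 95% interval of 0.91 to 9.10 (adjusted permutation p = 0.0778). Taking atrial and ventricular CMs together, the share was higher in the LV by 5.47 points over both strains (95% interval 1.45 to 9.49, higher in 19 of 34 pairs), which passed as a single test (permutation p = 0.00710). By strain this myocyte difference was 4.55 points in CD1 (permutation p = 0.0422) and 6.39 in C57BL/6 (permutation p = 0.0792). The CD1 call was lost in 9 of 17 fits that left out 1 stage (permutation p up to 0.0839) and with stages weighted by their cells (2.36 points, permutation p = 0.296). On a scale of log2 odds, which give more room to the stages with few CMs, the myocyte difference over both strains was 0.24 and did not pass (permutation p = 0.195), and that of ventricular CMs alone changed sign, to -0.13 over both strains (adjusted permutation p = 0.766) and -0.25 in C57BL/6.

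**Figure D1:**
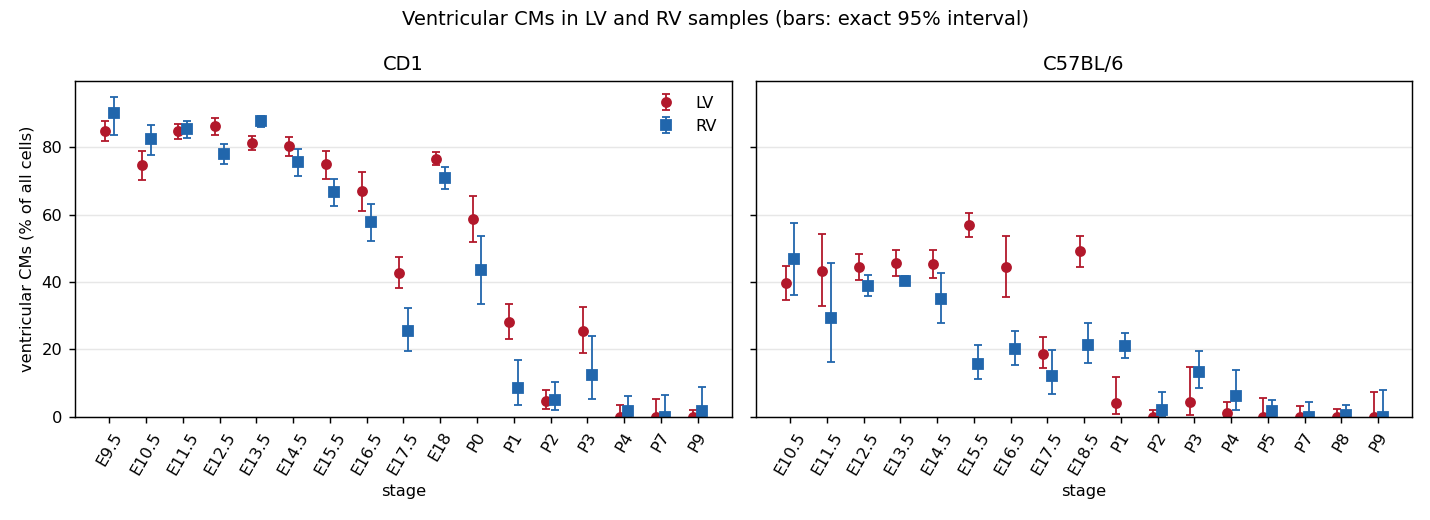
Share of ventricular CMs among all cells (percent, y axis) by stage (x axis) in LV (red circles) and RV (blue squares) samples of CD1 (left) and C57BL/6 (right), 1 point per sample with its exact 95% binomial interval. The LV point lies above the RV point at all 10 pairs from E14.5 to E18.5, and the order is mixed before and after.

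The CM difference was not spread evenly over development. The following windows of stages were chosen after the values were seen, so they carry no test. From E14.5 to E18.5 the share of ventricular CMs was higher in the LV in 10 of 10 pairs, by 15.54 points on average (SD 12, range 4.79 to 41.2). In CD1 it was 80.3% in the LV and 75.5% in the RV at E14.5, 74.9% and 66.6% at E15.5, 67.0% and 57.7% at E16.5, 42.7% and 25.5% at E17.5, and 76.6% and 71.0% at E18. In C57BL/6 it was 45.4% and 35.1% at E14.5, 57% and 15.8% at E15.5, 44.4% and 20.1% at E16.5, 18.8% and 12.1% at E17.5, and 49.1% and 21.4% at E18.5. The exact 95% intervals of LV and RV overlapped in 5 of these 10 pairs and were apart in the other 5, which were E17.5 and E18 of CD1 and E15.5, E16.5 and E18.5 of C57BL/6. They were widest apart at E15.5 of C57BL/6, where 442 of 776 LV cells but 36 of 228 RV cells were ventricular CMs. From E9.5 to E13.5 the mean difference was 0.66 points (SD 7.91), with the LV higher in 4 of 9 pairs. Around birth the mean differences of the strains had opposite signs. From P0 to P3 the CD1 difference was 11.8 points (SD 8.68, LV higher at 3 of 4 stages), with 28.1% in the LV and 8.54% in the RV at P1, whereas C57BL/6 had -9.25 points (SD 7.30, RV higher at 3 of 3 stages), with 4.23% in the LV and 20.9% in the RV at P1. That C57BL/6 LV sample at P1 held 71 cells, of which 3 were ventricular CMs. From P4 on few ventricular CMs were recovered in either ventricle, and 0 of 185 LV cells at P9 of CD1 were ventricular CMs, which allows a share of up to 1.62%.

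The myocyte difference had the same sign in the 9 wells of the experiments that used several, and at 1 of the 2 stages that were run again. The CD1 experiment of E9.5 to P3 was spread over 5 wells, and the mean myocyte difference in those wells ran from 1.14 to 7.20 points. In the 4 wells of the C57BL/6 E10.5 to P4 experiment it ran from 4.69 to 9.30 points. Wells share their pooled cells and so repeat the droplet step alone. The other 3 of the 12 wells were each an experiment of their own, with a mean myocyte difference of 12.6 points in E18 to P1 and -1.41 points in P2 to P9 of CD1, and of 2.12 points in P5 to P9 of C57BL/6. At P1 of CD1, run in 2 experiments, the myocyte difference was 19.5 points in the E18 to P1 experiment and 31.5 points in the E9.5 to P3 experiment. At P2 it was 9.22 points in the E9.5 to P3 experiment, on 55 LV and 28 RV cells, and -3.88 points in the P2 to P9 experiment, on 185 and 109.

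Pericytes were the cell type whose share of all cells passed the test over both strains. They support and stabilise capillaries. They made up 3.67% ± 2.94 of LV cells and 5.22% ± 4.53 of RV cells (SD, n = 34 pairs), so the LV was lower by a mean of 1.55 points (LV minus RV -1.55, 95% interval -2.51 to -0.60, adjusted permutation p = 0.0109), with the RV higher in 22 pairs, the LV in 9 and both equal in 3. Of the 10 types tested in both strains it was the single one called, 10% of the tests. The difference had the same sign in each strain, -1.33 points in CD1 (SD 2.84, RV higher at 11 of 17 stages, permutation p = 0.0551) and -1.77 points in C57BL/6 (SD 2.70, RV higher at 11 of 17, permutation p = 0.0101), and after adjustment over the types neither strain passed alone (adjusted permutation p = 0.276 and 0.111). In CD1 1 of 10 types and in C57BL/6 1 of 11 had a permutation p under 0.05 before adjustment and 0 after it, so 0% were called in each. The strains' pericyte differences differed by 0.44 points (permutation p = 0.649).

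**Figure D2:**
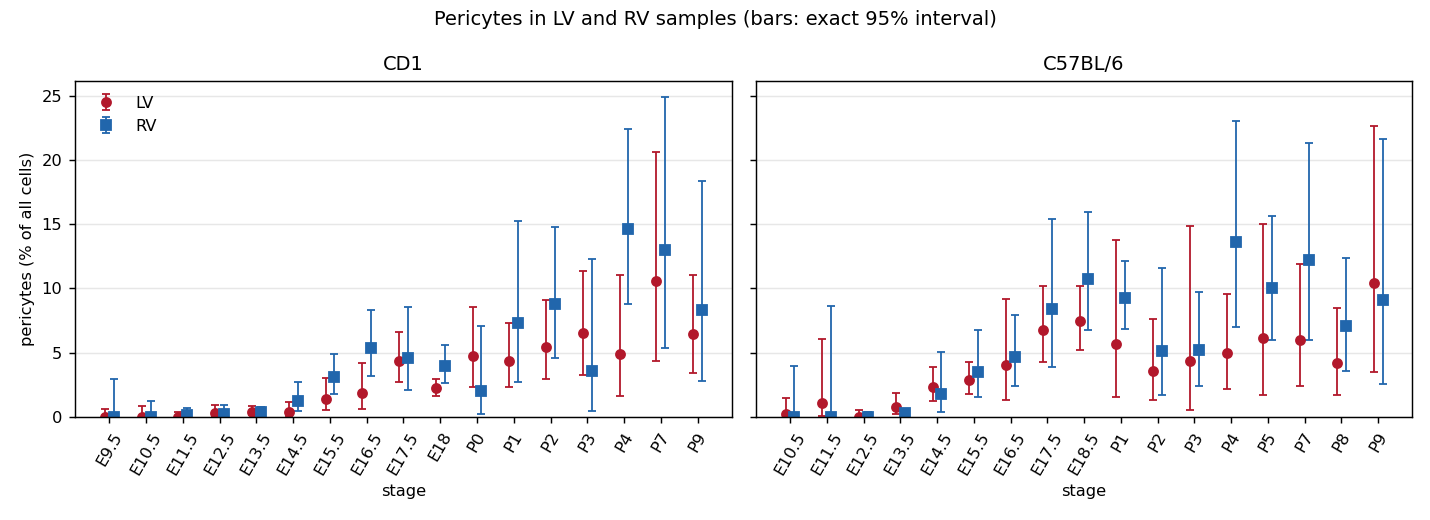
Share of pericytes among all cells (percent, y axis) by stage (x axis) in LV (red circles) and RV (blue squares) samples of CD1 (left) and C57BL/6 (right), 1 point per sample with its exact 95% binomial interval. Pericytes were at or below 1.11% up to E13.5 in both ventricles, and the widest gaps are at P4 of both strains, where the RV point is the higher one.

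Stage by stage, pericytes were scarce in both ventricles early on. From E9.5 to E13.5 every sample of both strains was at 1.11% or below. In CD1 their share then was 0.394% in the LV and 1.27% in the RV at E14.5, 1.40% and 3.07% at E15.5, 1.83% and 5.33% at E16.5, 4.38% and 4.59% at E17.5, and 2.25% and 3.93% at E18. The RV was thus the higher at all 5 of these CD1 stages. After birth the CD1 shares were 4.74% in the LV and 2.02% in the RV at P0, 4.35% and 7.32% at P1, 5.42% and 8.76% at P2, 6.51% and 3.57% at P3, 4.90% and 14.7% at P4, 10.6% and 13.0% at P7, and 6.49% and 8.33% at P9. P0 and P3 went the other way, on 2 pericytes in each of their RV samples. Stages with the higher RV also rested on few cells, such as 3 LV and 6 RV pericytes at E14.5. In C57BL/6 the shares were 2.30% in the LV and 1.75% in the RV at E14.5, 2.84% and 3.51% at E15.5, 4.03% and 4.63% at E16.5, 6.80% and 8.41% at E17.5, and 7.45% and 10.7% at E18.5. After birth they were 5.63% and 9.24% at P1, 3.57% and 5.15% at P2, 4.35% and 5.23% at P3, 4.97% and 13.6% at P4, 6.15% and 10.1% at P5, 5.98% and 12.2% at P7, 4.22% and 7.10% at P8, and 10.4% and 9.09% at P9. Between E15.5 and P8 the RV of C57BL/6 was the higher at each of these stages, with 4 LV pericytes at P1 and 2 at P3. The largest gap in CD1 was at P4, with 5 of 102 LV cells against 17 of 116 RV cells, and in C57BL/6 also at P4, with 8 of 161 against 11 of 81. The exact 95% intervals of LV and RV overlapped in all 34 pairs, P4 of both strains included, so the call rests on the pairs together and not on any stage. From P4 to P9 the mean difference was -4.28 points (SD 3.70), with the RV higher in 7 of 8 pairs, a window chosen after the values were seen.

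The call for pericytes, though not the sign of the mean difference, depended on what the cells were counted against. So did the number of C57BL/6 stages at which the RV was the higher. Among non-myocytes alone pericytes made up 5.41% ± 3.74 in the LV and 6.74% ± 4.94 in the RV (SD, n = 34 pairs), a difference of -1.34 points with a 95% interval of -2.65 to -0.03 that did not pass after adjustment (adjusted permutation p = 0.360), and the RV was higher in 19 pairs and the LV in 12. By strain it was -1.43 points in CD1 and -1.24 points in C57BL/6. In C57BL/6 the RV was then higher at 8 stages and the LV at 8. The LV was the higher at E15.5, E16.5 and E18.5, where the RV had the larger share of all cells. Over both strains the pericyte and myocyte differences among all cells were 0.20 and 0.51 points from E9.5 to E13.5. They were -1.36 and 15.4 points from E14.5 to E18.5, and -4.28 and 0.38 points from P4 to P9. In CD1 from P0 to P3 they were -0.16 and 11.8 points, and in C57BL/6 from P1 to P3 -2.02 and -7.76 points. These windows were chosen after the values were seen. Whether the myocyte share set the pericyte gap was not tested. Counted against vascular ECs, the cells that pericytes wrap, pericytes were 21.1% of both types together in the LV and 28.5% in the RV of CD1 over 14 stages, and 22.1% and 22.3% in C57BL/6 over 15. Neither difference passed (permutation p = 0.0996 and 0.946, adjusted over 6 such comparisons 0.448 and 0.946), and these ratios were added after the data were seen. By this ratio the LV was higher at 5 CD1 stages and the RV at 8. In C57BL/6 the LV was higher at 10 stages and the RV at 4. The call over both strains was also lost in cells with 4000 or more UMIs and up to 20% mitochondrial UMIs (-1.19 points, adjusted permutation p = 0.102) and without the CD1 P2 to P9 experiment (-1.08 points, adjusted permutation p = 0.0870). In the 5 wells of the CD1 E9.5 to P3 experiment the mean pericyte difference ran from -1.18 to 0.86 points, and in the 4 wells of C57BL/6 from -3.90 to 0.24.

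Among non-myocytes no type passed the test between the ventricles. In CD1 0 of 8 types passed, in C57BL/6 0 of 9 and over both strains 0 of 8, that is 0% called in each, and in the 2 strains 0 types had a permutation p under 0.05 before adjustment. Over both strains 1 type, pericytes, did (permutation p = 0.0450).

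**Figure D3:**
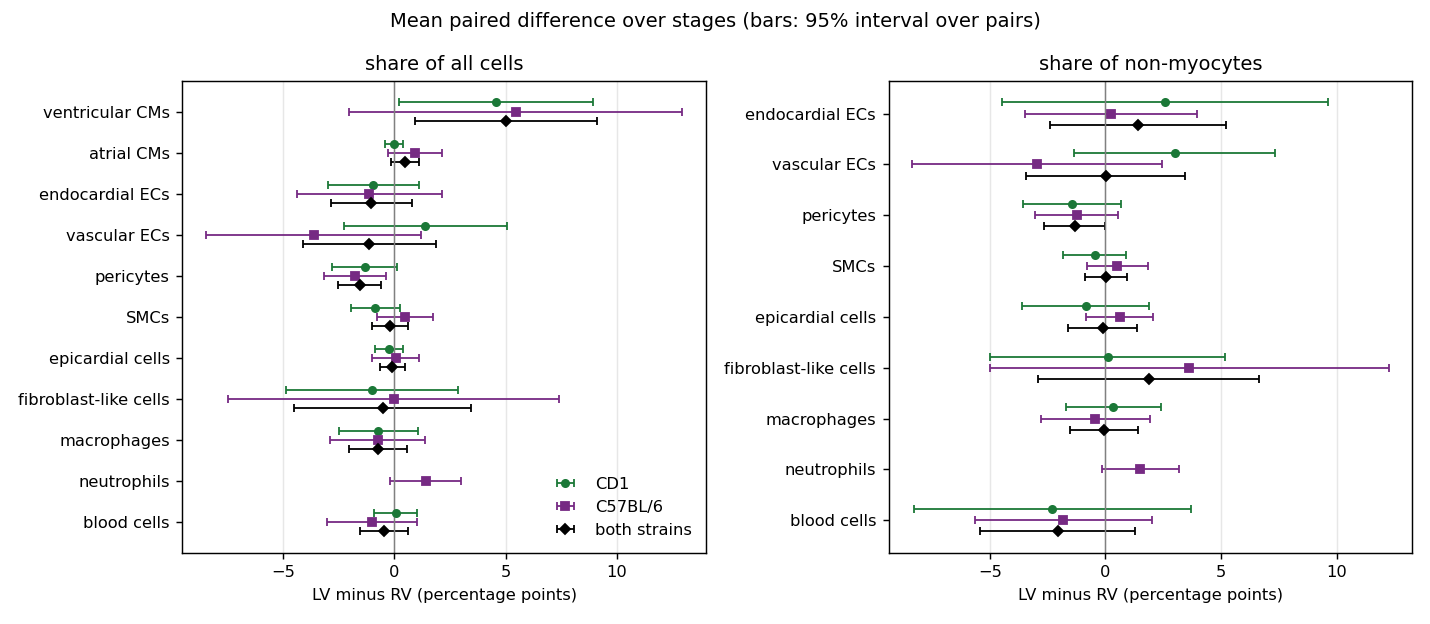
Mean paired difference in share, LV minus RV (percentage points, x axis), for each type tested (y axis) among all cells (left) and among non-myocytes (right), in CD1 (green circles), C57BL/6 (purple squares) and over both strains (black diamonds). Bars are 95% intervals over pairs. Among all cells the intervals over both strains leave out 0 for ventricular CMs and pericytes, and among non-myocytes the pericyte interval ends at -0.03.

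The vessel-forming ECs had mean differences of opposite sign in the strains. Vascular ECs were 11.2% ± 10.9 of LV cells and 9.84% ± 7.64 of RV cells in CD1 (SD, n = 17), and 14.6% ± 12.53 and 18.2% ± 11.9 in C57BL/6. Of these shares of all cells, the LV had the higher at 8 CD1 stages and the RV at 8. In C57BL/6 the LV had the higher at 5 stages and the RV at 11. Among non-myocytes the LV was higher by 3.0 points in CD1 (95% interval -1.35 to 7.34, higher at 11 of 17 stages), and lower in C57BL/6, by a mean of 2.95 points (LV minus RV -2.95, interval -8.35 to 2.45, LV higher at 7 stages and RV at 9). The 5.95 points between the strains did not pass (permutation p = 0.0795, adjusted 0.636). Single stages were not tested, and those given here had wide gaps. From P1 to P3 of C57BL/6 vascular ECs were 14.1%, 22.0% and 19.6% of LV cells and 25.3%, 39.2% and 33.1% of RV cells. At P5 the order was the opposite, with 53.8% of 65 LV cells and 30.2% of 169 RV cells. At P9 of CD1 they were 38.9% in the LV and 18.3% in the RV.

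Endocardial ECs did not pass the test over all stages, at 4.41% ± 2.14 in the LV and 5.36% ± 3.26 in the RV of CD1 (SD, n = 17) and 8.81% ± 5.65 and 9.92% ± 5.77 in C57BL/6. Over both strains the difference was -1.03 points (95% interval -2.84 to 0.78, adjusted permutation p = 0.542). Among non-myocytes the mean had the other sign, at 1.41 points (95% interval -2.39 to 5.20, adjusted permutation p = 0.978), with the LV higher in 19 pairs and the RV in 15. In CD1 the size and sign of the difference among all cells varied over the stages. At E9.5 endocardial ECs were 9.43% of LV and 1.63% of RV cells, at E11.5 7.73% and 3.94%, at E18 1.82% and 5.97%, and at P1 4.35% and 12.2%. At P7 and P9 the LV was again the higher, with 3 of 66 LV and 2 of 54 RV cells and with 9 of 185 and 2 of 60. Across the 17 CD1 stages the difference was negatively related to stage order (Pearson's r = -0.54, permutation p = 0.0251, adjusted 0.125, and Spearman's rho = -0.53, permutation p = 0.0327, adjusted 0.109), without passing after adjustment. It was stronger without the 2 stages farthest from the middle (r = -0.86). In CD1 these were P7 and P9, where the LV was the higher, against the trend. It was also stronger within the 13 stages of the E9.5 to P3 experiment (r = -0.82, adjusted permutation p = 0.00140, rho = -0.89, adjusted permutation p = 0.00120). That experiment does not hold P4 to P9, so both fits lack P7 and P9 and are not separate support. In C57BL/6 the relation did not pass (r = 0.18, permutation p = 0.496, rho = 0.05, permutation p = 0.839).

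Other relations with stage held in parts of the data. Over all stages 0 of 10 types in CD1 and 0 of 11 in C57BL/6 passed for their share of all cells by Spearman's rho, and 3 and 3 had an unadjusted permutation p under 0.05. Within the CD1 E9.5 to P3 experiment the difference in ventricular CMs rose with stage (r = 0.80, adjusted permutation p = 0.00530, rho = 0.84, adjusted permutation p = 0.00265), while over the 17 stages r was 0.22 (permutation p = 0.395). In the same experiment the difference in fibroblast-like cells among all cells fell with stage (r = -0.76, adjusted permutation p = 0.00653, rho = -0.76, adjusted permutation p = 0.0106), while over the 17 stages r was 0.17 (permutation p = 0.503). Counted among non-myocytes alone, the fibroblast-like difference in that experiment did not fall with stage (r = 0.009, permutation p = 0.978, rho = 0.19, permutation p = 0.542). Whether the rise in ventricular CMs set the fall in fibroblast-like cells among all cells was not tested. In C57BL/6 the pericyte difference fell with stage within the E10.5 to P4 experiment (r = -0.75, adjusted permutation p = 0.00374, rho = -0.84, adjusted permutation p = 0.00572). Over the 17 C57BL/6 stages r was -0.57 (adjusted permutation p = 0.0845) and rho -0.54 (adjusted permutation p = 0.163). Without the 2 stages farthest from the middle, here E10.5 and P9, r was -0.77. Vascular ECs (r = -0.77, adjusted permutation p = 0.0169) and neutrophils (r = 0.73, adjusted permutation p = 0.0169) passed within that experiment by r and not by rho (rho = -0.67 and 0.49, adjusted permutation p = 0.0810 and 0.251).

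Mural and matrix cells other than pericytes did not pass the test. SMCs, which surround the larger coronary vessels, were 2.41% ± 2.77 of LV and 3.27% ± 4.25 of RV cells in CD1 and 3.24% ± 3.74 and 2.75% ± 2.76 in C57BL/6 (SD, n = 17). Their difference over both strains was -0.19 points (95% interval -1.01 to 0.64). Fibroblast-like cells, which make the matrix, were the most abundant non-myocytes, at 17.7% ± 15.52 in the LV and 18.7% ± 13.9 in the RV of CD1 and 30.4% ± 10.49 and 30.4% ± 9.07 in C57BL/6. Their difference over both strains was -0.51 points, with an interval of -4.48 to 3.45, so a gap of several points in either direction could not be seen at this size. Among non-myocytes the mean had the other sign, at 1.87 points (95% interval -2.90 to 6.64). In single C57BL/6 pairs the difference among all cells ran from -22.2 points at P5 to 24.5 points at P8. Epicardial cells were 1.71% in the LV and 1.79% in the RV over the 34 pairs (difference -0.08 points, 95% interval -0.66 to 0.49).

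Immune and blood cells showed no called difference. Macrophages, the resident phagocytes, were 4.99% ± 4.36 in the LV and 5.72% ± 4.34 in the RV (SD, n = 34 pairs), with the RV higher in 22 pairs and the LV in 10, and a mean difference of -0.73 points (95% interval -2.04 to 0.59, adjusted permutation p = 0.542). Among non-myocytes the RV was higher in 17 pairs and the LV in 15, with a mean difference of -0.06 points (95% interval -1.54 to 1.43). P2 went against the count of pairs among all cells. Macrophages there were 16.7% of LV and 6.57% of RV cells in CD1, and 15.48% and 5.15% in C57BL/6. Neutrophils, which are short-lived blood-borne phagocytes, were frequent enough to test in C57BL/6, where they made up 2.74% ± 3.81 of LV and 1.33% ± 1.60 of RV cells (SD, n = 17, adjusted permutation p = 0.322). From P1 to P7 of C57BL/6, stages picked after the values were seen, neutrophils had the larger share in the LV at 6 of 6 stages, by 1.83 to 7.62 points, for instance 18 of 168 LV cells and 3 of 97 RV cells at P2. Over all 8 postnatal stages the LV was the higher at 6, by a mean of 3.61 points, with 2 of 166 LV and 2 of 155 RV cells at P8 and 0 in both at P9. In CD1 there were 5 neutrophils in the LV and 11 in the RV in all. Blood cells (red cells) were 1.97% and 2.44% over both strains, and the largest gap was at E10.5 of C57BL/6, with 19.0% in the LV and 31.5% in the RV. The rarer types of CD1 were T cells (17 in the LV and 20 in the RV), B cells (17 and 10), natural killer cells (16 and 6) and dendritic cells (3 and 4). C57BL/6 had 3 and 2 dendritic cells.

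Cells near the valves were looked at because the atrioventricular canal went into the LV samples. In CD1 the authors had given some endocardial, epicardial and fibroblast-like cells a mark of uncertain valve origin, and 165 such cells were in LV and 150 in RV samples, a comparison added after the data were seen. They made up 7.53% of non-myocytes in the LV and 9.03% in the RV on average over 17 stages, with the LV higher at 6 stages and the RV at 10 (permutation p = 0.522). At E9.5 it was 40 of 92 LV and 2 of 11 RV non-myocytes, and at E12.5 13 of 101 and 42 of 165. Most of the marked cells were from E9.5 to E13.5. Atrial CMs, another possible trace of neighbouring tissue, differed by -0.01 points in CD1 and 0.95 points in C57BL/6 (adjusted permutation p = 0.943 and 0.322). They were most frequent late in C57BL/6, with 6 of 48 LV cells at P9 and 19 of 155 RV cells at P8.

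No LV to RV gap passed a test of the difference between the strains. Of the 10 types tested for their share of all cells and the 8 for their share of non-myocytes, 0 passed, and 0 had an unadjusted permutation p under 0.05. Stage by stage the strains were also compared over the 15 stages present in both, for which CD1 E18 and C57BL/6 E18.5 were taken as 1 stage, a comparison added after the data were seen. The pericyte differences of the strains went together (r = 0.72, permutation p = 0.00566, adjusted 0.0566, and rho = 0.49, permutation p = 0.0666, adjusted 0.368), but r dropped to 0.49 (permutation p = 0.0888) without the 2 stages of largest deviation in CD1. For ventricular CMs r was 0.05 (permutation p = 0.862) and rho 0.14 (permutation p = 0.618).

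UMI counts and mitochondrial percentages of all cells together passed no test between the ventricles. The median UMI count of all cells was 1.01 times as high in the LV as in the RV in CD1 (log2 ratio 0.02, SD 0.23, permutation p = 0.734) and 1.01 times in C57BL/6 (log2 ratio 0.02, SD 0.38, permutation p = 0.871). By type 0 of 4 types with enough cells passed in either strain (0%), and 1 in each had an unadjusted permutation p under 0.05. In CD1 that was ventricular CMs, with 0.914 times the UMIs in the LV (lower at 8 of 11 stages, adjusted permutation p = 0.0664), and in C57BL/6 vascular ECs, with 0.764 times the UMIs in the LV (lower at 9 of 13 stages, adjusted permutation p = 0.0918). The mitochondrial percentage of all cells, a sign of stress and of CM content alike, was 7.65% in the LV and 7.34% in the RV of CD1 (mean of the samples' medians, permutation p = 0.696) and 5.73% and 4.90% in C57BL/6 (higher in the LV at 13 of 17 stages, permutation p = 0.0676). Among non-myocytes it was 4.52% and 4.53% in CD1 and 3.99% and 3.80% in C57BL/6. Of the 4 types with enough cells 0 passed in each strain (0%) and 0 had an unadjusted permutation p under 0.05.

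Ventricular CMs of the LV had a higher share of ribosomal UMIs than those of the RV. The percentage of UMIs on ribosomal genes was added to the comparison after the data were seen, and what its column in the deposited tables counts was read from the column's name alone. It was higher in LV than in RV ventricular CMs at 17 of 20 stage pairs with 10 or more such cells in both, by a mean of 0.93 points (SD 0.91, adjusted permutation p = 0.00120 over 4 types, and 0.00480 over all 16 tests of 4 types and 4 measures). It was the 1 type called of 4 (25%). All cells together went the other way, with a ribosomal percentage lower in the LV by a mean of 0.67 points over both strains (LV minus RV -0.67, permutation p = 0.0479), -1.24 points in C57BL/6 (permutation p = 0.0322) and -0.10 points in CD1 (permutation p = 0.763). In ventricular CMs of CD1 the difference was 0.80 points (higher in the LV at 9 of 11 stages, adjusted permutation p = 0.0762) and in C57BL/6 1.09 points (at 8 of 9, adjusted permutation p = 0.0313). From E14.5 to E18.5 it was positive in 10 of 10 pairs, from 0.84 to 1.95 points. In CD1 the LV and RV medians were 13.8% and 12.3% at E14.5, 12.7% and 11.03% at E15.5, 11.6% and 9.68% at E16.5, 10.6% and 9.10% at E17.5 and 12.6% and 11.3% at E18. In C57BL/6 they were 15.8% and 14.1% at E14.5, 14.3% and 12.53% at E15.5, 12.8% and 11.6% at E16.5, 10.4% and 9.35% at E17.5 and 10.8% and 10.00% at E18.5. In CD1 the level was 16.51% in the LV and 16.97% in the RV at E9.5, and 8.44% and 8.16% at P0, the earliest and the latest stage with enough of these cells, and the RV was the higher at E9.5 and E10.5.

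**Figure D4:**
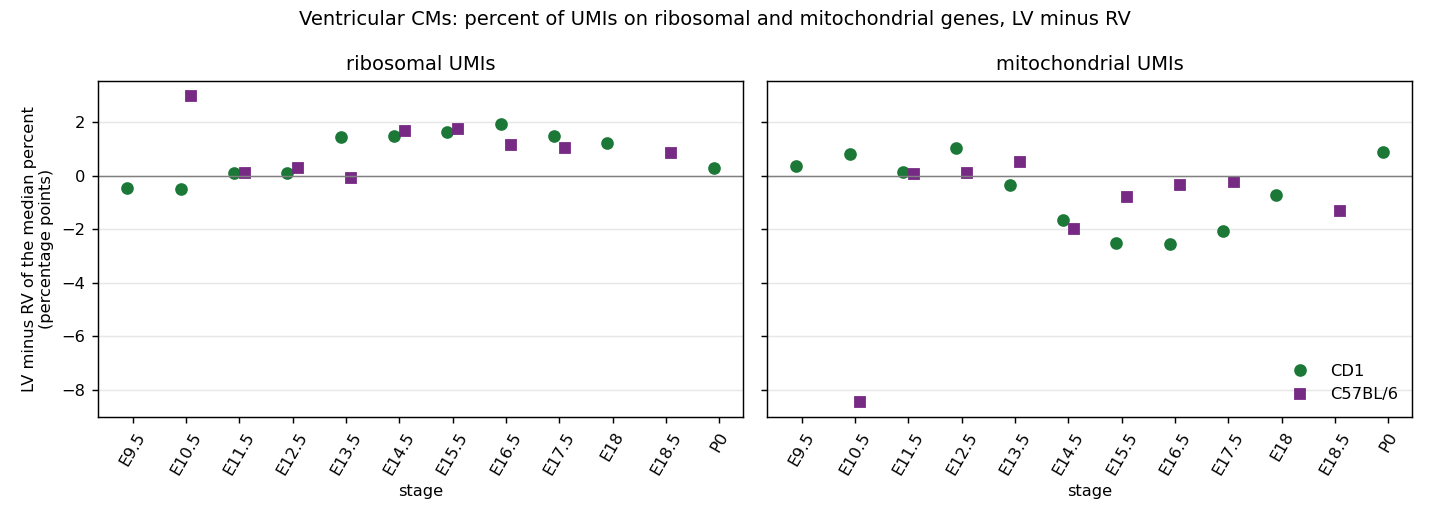
LV minus RV difference in the median percent of UMIs on ribosomal (left) and mitochondrial (right) genes in ventricular CMs (percentage points, y axis) by stage (x axis), for CD1 (green circles) and C57BL/6 (purple squares), 1 point per pair with 10 or more ventricular CMs in both ventricles. From E14.5 to E18.5 all 10 points lie above 0 on the left and below 0 on the right.

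In ventricular CMs from E14.5 to E18.5 the mitochondrial percentage went the opposite way. Both percentages are parts of the same UMI total, so the ribosomal and mitochondrial differences are not independent results. From E14.5 to E18.5 the mitochondrial percentage was lower in the LV in 10 of 10 pairs, by a mean of 1.42 points (LV minus RV -1.42, SD 0.86, range -2.54 to -0.24), for example 12.9% in the LV and 15.4% in the RV at E16.5 of CD1. From E9.5 to E13.5 it was higher in the LV in 7 of 9 pairs, with a mean of -0.63 points (SD 2.95). The ribosomal percentage was higher in the LV in 6 of those 9 pairs. Both windows were chosen after the values were seen. Over all 20 pairs the mean mitochondrial difference was -0.95 points (SD 2.09), with the RV higher in 12, and did not pass (adjusted permutation p = 0.101). The pair that stood farthest apart was E10.5 of C57BL/6. There 43 RV ventricular CMs had a median of 16.7% mitochondrial UMIs and 14309 UMIs, and 152 LV ones 8.24% and 23549.5. This pair also had the largest ribosomal difference of the 20, at 2.97 points. The median UMI count of ventricular CMs was lower in the LV in 13 of 20 pairs (0.953 times that of the RV, adjusted permutation p = 0.565), and the part of depth in the ribosomal difference was not tested. Leaving out each of the 20 pairs in turn kept the ribosomal difference between 0.82 and 1.0 points. Vascular ECs (-0.83 points, adjusted permutation p = 0.131), endocardial ECs (-0.45, adjusted permutation p = 0.406) and fibroblast-like cells (-0.29, adjusted permutation p = 0.406) had lower mean ribosomal percentages in the LV, and none of these passed.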

How the data were processed

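Single cells of wild-type CD1 and C57BL/6 mouse hearts were profiled in 5 MULTI-seq experiments. Per the paper's methods and the submitters' processing notes, the authors aligned reads with Cell Ranger 3.1.0 to GRCm38.p4, assigned cells to samples with deMULTIplex, took out doublets (MULTI-seq calls and scds), filtered cells (the deposited cells have 2000 or more UMIs, 1000 or more genes and up to 30% mitochondrial UMIs), and clustered and annotated them with Seurat and Harmony. The deposited tables have 1 line per cell. The UMI and gene counts per cell were deposited as raw counts, the mitochondrial and ribosomal percent as the authors computed them, and the doublet score as the authors' scds hybrid score. Left unused were 228 columns of per-cell values and the tables of mutant hearts, which name no ventricle.

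Cells marked for exclusion (20 LV and 36 RV cells, C57BL/6) and CD1 P5 (45 LV and 12 RV cells) were left out. Shares were taken per stage and ventricle, among all cells and among non-myocytes (cells neither atrial nor ventricular CM, at least 10 in both ventricles). Stages paired the ventricles, since both came from the same pooled hearts. Labels name no separate litters, so p-values measure the spread between stages, which holds age, pooling and technical spread together. The mean LV minus RV difference was tested by flipping signs over pairs (two-sided, 100000 resamples, exact where there were fewer patterns), with Benjamini-Hochberg adjustment over types and a threshold of 0.05. Types with 50 or more cells in a strain were tested, rarer ones counted. Medians of UMIs and percents were compared for types with 10 or more cells in both ventricles at 6 or more stages. Strains were compared by permuting strain labels, and stage relations by permuting stages. Single shares have 95% binomial intervals by the exact Clopper-Pearson method, and 0 cells allow up to 3 of the total, which covers counting error alone. Intervals of mean differences come from the t distribution over pairs. Small samples give wide intervals. The rule for names was to name all types tested, no gene except as the study's marker, the extreme stages of a called type and every stage of the types led with. The members, types and tests were chosen with earlier results of these data known. Tests were checked on simulated data. Scripts ran in Python 3.11.15 with pandas 2.3.3, numpy 2.4.6 and scipy 1.17.1, and figures with matplotlib 3.10.9.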

Additional observations from a re-analysis of the deposited data

How the results depend on the processing

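Pericytes over both strains kept their direction (lower in the LV) under all 53 alternatives run, and their adjusted permutation p lost the threshold in cells with 4000 or more UMIs and up to 20% mitochondrial UMIs (-1.19 points, p = 0.102), with shares taken per well (-1.24, p = 0.0922), without pairing by stage (-1.55, p = 0.890), in embryonic stages (-0.62, p = 0.104) or postnatal stages alone (-2.73, p = 0.0983), without the C57BL/6 E10.5 to P4 experiment (-1.63, p = 0.129) and without the CD1 P2 to P9 experiment (-1.08, p = 0.0870). The count of types called over both strains was then 0 in the 6 of these that shifted no other type over the threshold, and with the filter on UMIs ventricular CMs were called instead (6.06 points, adjusted permutation p = 0.00920). With each stage left out in turn the pericyte difference ran from -1.69 to -1.30 and stayed called. In C57BL/6 alone pericytes were called with a minimum of 50 cells per sample (-2.26, adjusted permutation p = 0.0457, 1 type called). The cause of none of these changes was tested.

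Ventricular CMs over both strains were also called with CD1 P1 and P2 counted once per experiment (5.69 points, 2 types called), and with single stages left out they ran from 3.91 to 5.66, with 1 to 2 types called (2 without C57BL/6 P1 or P3). Their sign turned on log2 odds (-0.13 over both strains, -0.25 in C57BL/6), in postnatal C57BL/6 stages (-4.39), in the C57BL/6 P5 to P9 experiment alone, the same as without the E10.5 to P4 experiment (-0.61), and within the CD1 P2 to P9 experiment (-1.82).

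The myocyte share over both strains kept its direction and lost its call on log2 odds (0.24), without pairing (5.47) and in postnatal stages (1.80). In CD1 it lost its call with stages weighted by cells (2.36), on log2 odds (0.19), without pairing (4.55), in embryonic (3.19) or postnatal stages (6.49), without the E18 to P1 (5.12) or the E9.5 to P3 experiment (3.25) and without CD1 P1 and P2 and C57BL/6 E13.5 (3.80), turned to -1.41 within the P2 to P9 experiment, and ran from 3.51 to 5.32 with single stages left out, where 9 of 17 such fits lost the call. In C57BL/6 it passed with the filter on UMIs (8.52), weighting by cells (8.90) and embryonic stages alone (14.1), was -2.31 in postnatal stages, and ran from 4.24 to 7.84 with single stages left out (called without P1).

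Types called for a relation with stage numbered, for all cells of CD1, 2 without the P2 to P9 experiment, 3 within the E9.5 to P3 experiment, 2 without CD1 P1 and P2 and C57BL/6 E13.5, and 0 to 2 with single stages left out. For C57BL/6 they numbered 2 with a minimum of 50 cells, and 1 without the highest 10% of doublet scores, in embryonic stages, and without the P5 to P9 or within the E10.5 to P4 experiment, and 0 to 1 with single stages left out. Among C57BL/6 non-myocytes they were 2 with a minimum of 50 cells, 1 without high doublet scores and 0 to 1 with single stages left out.

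The number of cells in CD1 (log2 LV over RV) lost its call in embryonic stages (0.58) and without the E9.5 to P3 experiment (1.05). In C57BL/6 it was -0.45 in postnatal stages, -0.16 in the P5 to P9 experiment, and -0.0546 to 0.268 with single stages left out. The log2 UMI ratio of all cells lay near 0 and turned in CD1 with the filter on UMIs (-0.0153, 1 type called), in embryonic stages (-0.0548), without the P2 to P9 experiment (-0.0215), within that of E9.5 to P3 (-0.0238), and without CD1 P1 and P2 and C57BL/6 E13.5 (-0.0164), running from -0.0050 to 0.0420 with single stages left out (0 to 1 types called). In C57BL/6 it was 0.228 in embryonic stages (p = 0.0273, an exact permutation test), -0.224 in postnatal ones and -0.0298 to 0.0710 with single stages left out (0 to 1 types called). The mitochondrial percent of all cells turned in CD1 in embryonic stages (-0.10), without the E9.5 to P3 (-0.0436) and within the P2 to P9 experiment (-0.143), with -0.123 to 0.473 over single stages left out, and in C57BL/6 passed with the filter on UMIs (0.910) and ran from 0.562 to 1.05 with single stages left out (called without E10.5).

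The ribosomal difference in ventricular CMs kept its direction in the alternatives run. Its unadjusted permutation p stayed under 0.05 in those that could be tested, at up to 0.0469. It was not adjusted over types there, unlike the call in the Results, so these alternatives do not show whether the adjusted call held. Leaving out a pair changes the ribosomal difference for the 20 pairs that enter and no other. Of the other values, 151 of 1187 for single types of 1 strain and 96 of 883 over both strains changed sign, and 0 became called. The alternative annotation of C57BL/6 was not run, and with no minimum of non-myocytes the same stages entered. Pairing here is by stage. Sample sizes of 41 to 5416 cells leave shares of single stages wide, and differences of a few points in 1 strain could not be seen.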
